A study of Mus musculus with 34 samples.

Results

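The genes described are the potassium channel genes of the mouse lung, taken as the rows of the deposited count tables whose symbol begins with Kcn, letters and a digit, that are annotated as protein-coding and that reached 10 counts in at least 2 libraries. Of the 21789 genes in the tables, 83 had such a symbol, 2 of these were antisense RNAs and 10 stayed below the count rule, which left 71 genes. By symbol they fall into 15 voltage-gated pore subunits (Kcna to Kcnd), 14 auxiliary subunits (Kcnab, Kcne, Kcnip, Kcnmb), 11 inward rectifiers (Kcnj), 8 tandem-pore subunits (Kcnk), 8 calcium- or sodium-activated subunits (Kcnma, Kcnn, Kcnt, Kcnu), 6 EAG and ERG subunits (Kcnh), 5 Kcnq subunits and 4 modifier subunits (Kcnf, Kcng, Kcns). All 71 passed the filter on low counts and were tested.

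Poly(A) RNA-seq had been made from whole embryonic mouse lungs, 34 libraries in 10 groups. Control lungs without Lin28A expression were taken at embryonic days E12.5 (n = 3), E14.5 (n = 3), E16.5 (n = 3) and E18.5 (n = 5). Lungs with Lin28A overexpressed globally, tagged Vasa in their titles, were taken on the same days (n = 3, 4, 3 and 5). Lungs with Lin28A in epithelial cells, tagged Nkx2.1 (n = 3), and in mesenchymal cells, tagged Wt1 (n = 2), were taken at E18.5. Doxycycline at 1 g/L in the drinking water was given in all groups, controls included, from the day the plug was found. The labels do not describe the alleles or the drivers, nor state that replicates are separate embryos or litters, so p-values measure the spread between these samples, which may be technical.

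Potassium channels let potassium leave or enter the cell down its gradient and set the resting potential. Tandem-pore and inward rectifier channels are open near rest, voltage-gated and Kcnh channels open on depolarisation, and BK and SK channels open when calcium rises, while auxiliary and modifier subunits have no conducting pore of their own and tune their partners. In lung, potassium channels of the basolateral and apical membranes keep up the driving force for chloride and fluid secretion by the fetal epithelium, and those of arterial and airway smooth muscle hold its tone down. Lin28A is an RNA-binding protein known to block the maturation of let-7 microRNAs.

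Values are CPM, counts relative to the library total scaled by the TMM factors of edgeR, and comparisons between genes use CPM per kb of exon. Library totals ranged from 7147301 to 17624884 counts. Lin28a itself lay between 0.192 and 4.15 CPM in the 14 control libraries and between 289 and 1301 CPM in the 20 transgenic libraries. Several libraries stood apart in markers of other tissues. Control 3 of E14.5 held summed thymus markers of 313 CPM, global 4 of E14.5 held kidney markers of 611 CPM, and at E18.5 control 1 was high in hepatocyte genes (868 CPM), control 3 in cardiomyocyte genes (1087 CPM) and epithelial 1 in erythroid genes (21258 CPM). At E12.5 cardiomyocyte genes summed to 648, 2659.8 and 2595 CPM in the controls and to 2223, 66.02 and 117 CPM in the global libraries. Where a call of a gene named below was lost without the first 5 of these libraries, that is given beside it. Without the 3 of E12.5 high in cardiomyocyte genes only control 1 of that day remained, so folds from that setting carry no call. Of the 71 genes, 25 share exon bases with another annotated gene, and since the strandedness of the counting is not stated, reads of such partners cannot be told apart.

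In the control lung the set was dominated per length by a few genes, and the leaders changed with age. At E12.5 the highest means were 8.77 CPM per kb for Kcne1l, an auxiliary subunit of Kcnq channels, 8.68 for Kcnk3 and 7.997 for Kcnk1, both tandem-pore background channels. At E14.5 Kcnk1 (12.9 CPM per kb), Kcnk3 (12.2) and Kcne1l (11.6) still led. At E16.5 Kcnk1 stood at 14.1 and Kcnk3 at 12.6 CPM per kb. By E18.5 the inward rectifier Kcnj15 led with 16.4 CPM per kb, ahead of Kcnk3 (14.3) and Kcnj8 (12.3). The order within each of these leading sets was not tested.

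Summed over the 71 genes, control lungs gained potassium channel RNA toward birth. The median log2 fold of the members was -0.15 in the step to E14.5, -0.32 in that to E16.5 and 0.17 in that to E18.5. The summed level of the 71 genes was 355 to 404 CPM in the controls of E12.5, 391.8 to 411 in those of E14.5, 522 to 564 in those of E16.5 and 599 to 733 in those of E18.5. From E12.5 to E14.5, 14 of the 71 rose and 13 fell (38% called, against 16.7% of all 18319 genes tested; a call is an edgeR adjusted p under 0.05). From E14.5 to E16.5, 12 rose and 13 fell (35.2% against 35.9% of all genes). From E16.5 to E18.5, 18 rose and 5 fell (32.4% against 36.3%). The share called was thus above that of all genes in the first step and close to it in the later ones. Without the 3 libraries of E12.5 that were high in cardiomyocyte genes only control 1 of that day remained. The first step could therefore not be judged without them.

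The genes that gained most in control lungs were pore and auxiliary subunits. Kcnj15 (ENSMUSG00000062609, chromosome 16, 95257558 to 95300260) measured 3.07, 2.26 and 2.78 CPM in the E12.5 controls, 6.15, 7.85 and 11.4 in those of E14.5, 60.7, 62.4 and 49.6 in those of E16.5 and 84.7, 95.1, 127, 119 and 92.1 in those of E18.5. No stage overlapped the one before it, with log2 folds of 1.64 ± 0.39, 2.76 ± 0.34 and 0.85 ± 0.28 (SE; adjusted p = 0.00375, 6.07e-07 and 0.0184). Without the 3 cardiomyocyte-high libraries of E12.5, which left only control 1 of that day, the first fold was 1.46. The last was not called without control 3 of E16.5 (0.76, adjusted p = 0.0926). Kcne2, an auxiliary subunit that pairs with Kcnq1 in secretory epithelia, had log2 folds of 3.65 ± 0.60 and 1.77 ± 0.42 in the later steps (adjusted p = 3.06e-05 and 0.00142). Its partner Kcnq1, the pore of epithelial and cardiac slow channels, rose with 1.80 ± 0.23 from E14.5 to E16.5 (adjusted p = 9.69e-07). Kcnj13, an inward rectifier of epithelia that in mice is needed to shape the trachea, had 2.39 ± 0.49 in that step (adjusted p = 0.000393).

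Other members lost RNA as control lungs matured. Kcnk16, a tandem-pore channel known from pancreatic beta cells, fell with a log2 fold of -1.95 ± 0.46 from E14.5 to E16.5 (adjusted p = 0.00157) and stood at 2.32 ± 0.253 CPM (SD, n = 3) at E12.5 but at 0.220 ± 0.0665 CPM (SD, n = 5) at E18.5. The A-type subunit Kcnd3 fell in both of the first steps, by -1.13 ± 0.33 and -1.21 ± 0.38 (adjusted p = 0.0187 and 0.0128). The first of these calls was lost without control 1 of E12.5 or controls 1 or 3 of E14.5 (log2 folds -1.08 to -0.99). It was also lost without the 5 libraries that stand apart (-1.01, adjusted p = 0.0514). Without the 3 cardiomyocyte-high libraries, which left only control 1 of E12.5, the fold was -1.35. The second call was lost without control 2 of E14.5 or of E16.5 (-0.998 and -0.96). Kcne1l fell late, by -1.12 ± 0.19 from E16.5 to E18.5 (adjusted p = 3.59e-05). The sodium-activated channel Kcnt1 went the other way in that last step, from 0.612, 0.721 and 0.648 to 6.90, 8.79, 7.63, 2.57 and 2.80 CPM (3.08 ± 0.42, adjusted p = 1.76e-06).

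**Figure D1:**
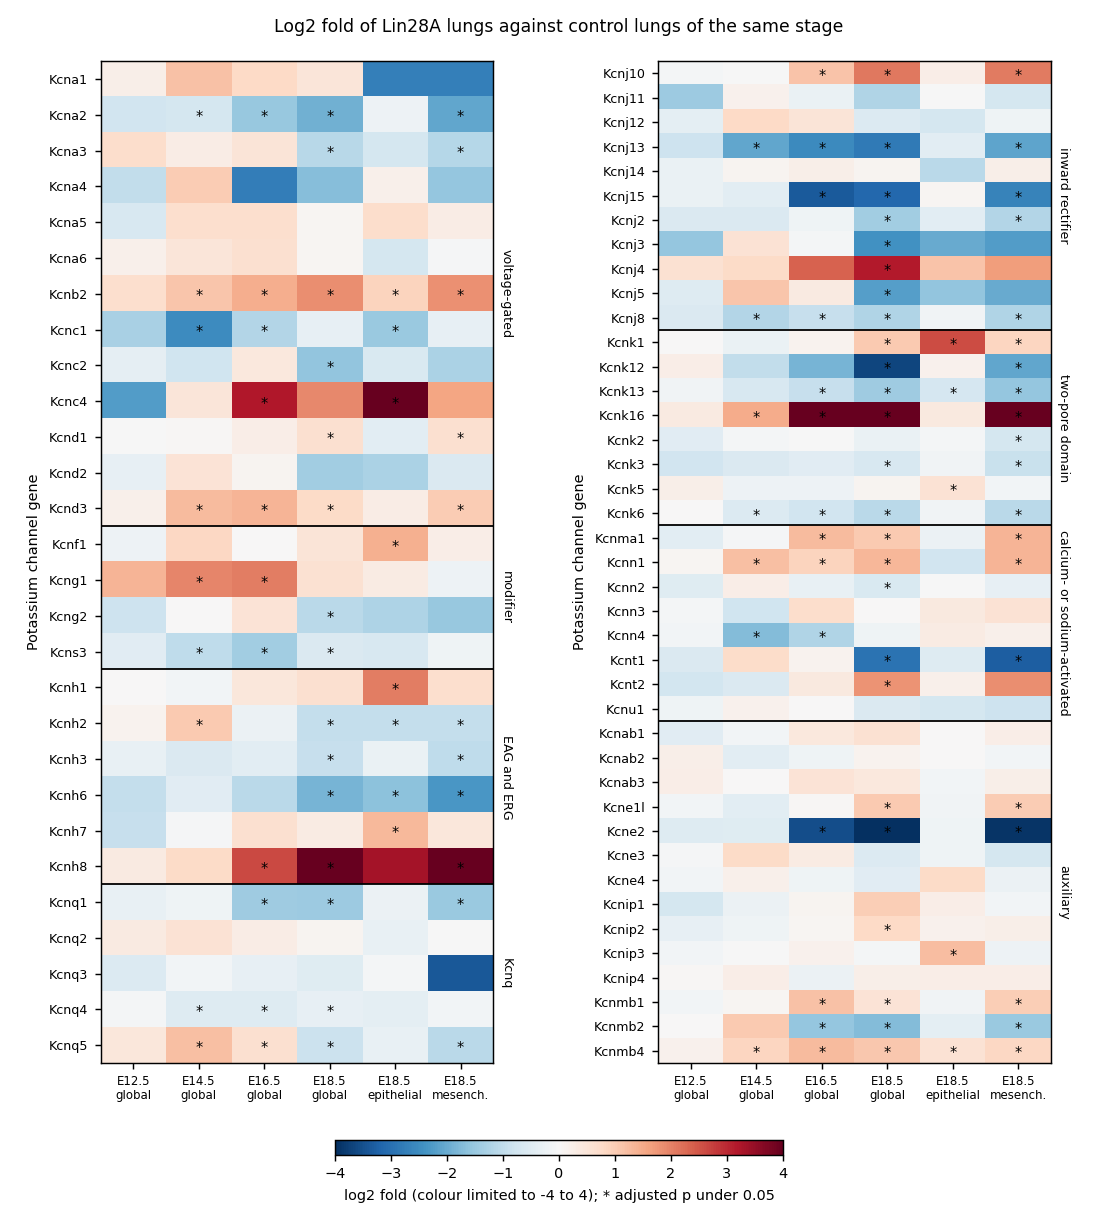
Log2 fold of 69 of the potassium channel genes between Lin28A and control lungs in the 6 transgenic comparisons, grouped by class, with calls at an adjusted p under 0.05 marked. No gene is called at E12.5, and at E18.5 the global and mesenchymal columns hold 40 and 31 calls and the epithelial column 13.

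Global Lin28A changed few of these genes early and most of them by E18.5, when falls outnumbered rises. At E12.5 none of the 71 was called by edgeR (0.224% of all genes were), 9 reached an unadjusted p under 0.05, and no member was called by the DESeq2 Wald test. At E14.5, 8 rose and 9 fell (23.9% against 12.9% of all genes). At E16.5, 12 rose and 14 fell (36.6% against 37%). At E18.5, 15 rose and 27 fell (59.2% against 64.8%), with a median log2 fold of -0.32 over the 71 beside -0.011 over all genes. The later shares were at or below those of all genes, so these counts are not a result about potassium channels. Without the 5 libraries that stand apart, 5 members were called at E14.5 in place of 17, among them Kcnb2 and Kcnq5 higher and Kcnc1 and Kcnj8 lower. The share of all genes called in that fit is not given here. Whether the share of members at E14.5 stayed above it therefore cannot be told.

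By class, the calls at E18.5 of global Lin28A were as follows, with no test between classes. Of the 11 inward rectifiers, 2 rose and 6 fell, and their median log2 fold was -1.22. Tandem-pore subunits had 2 higher and 4 lower of 8, voltage-gated subunits 3 higher and 5 lower of 15, Kcnq subunits 0 higher and 3 lower of 5, and EAG and ERG subunits 1 higher and 3 lower of 6. Auxiliary subunits had 4 higher and 2 lower of 14, calcium- or sodium-activated subunits 3 higher and 2 lower of 8, and modifiers 0 higher and 2 lower of 4. Summed over the 71 genes, the level was 368 to 396 CPM in the global libraries against 599 to 733 in the controls, without overlap.

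The largest loss in CPM was in Kcnj15. At E18.5 it measured 84.7, 95.1, 127, 119 and 92.1 CPM in the controls and 10.3, 5.56, 11.6, 15.01 and 15.2 in the global lungs. Every global library lay far below every control (-3.16 ± 0.26, adjusted p = 2.22e-11). The same was seen at E16.5, with 60.7, 62.4 and 49.6 CPM against 5.57, 5.61 and 5.52 (-3.37 ± 0.36, adjusted p = 3.44e-08). At E14.5 the groups overlapped, with 6.15, 7.85 and 11.4 CPM against 3.29, 5.17, 5.07 and 11.6 (-0.43 ± 0.34, adjusted p = 0.462). The global effect on Kcnj15 changed between E14.5 and E16.5 by -2.94 ± 0.49, adjusted p = 0.000938 on the log2 scale, tested as an interaction; for that interaction 5 of the 71 were called, against 7.88% of all genes.

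Kcne2 and Kcnq1, partners in one channel complex, fell together at the later stages. Kcne2 (ENSMUSG00000039672, chromosome 16, 92292389 to 92298129) measured 3.23, 5.77 and 2.67 CPM in controls and 0.404, 0.312 and 0.247 in global lungs at E16.5, and 13.2, 17.1, 18.9, 6.94 and 10.4 against 1.144, 0, 0.447, 1.098 and 0.880 at E18.5. The groups were apart at both stages, with log2 folds of -3.55 ± 0.61 and -4.20 ± 0.42 (adjusted p = 3.68e-05 and 6.51e-10). Kcnq1 measured 29.05, 29.999, 21.3, 24.5 and 19.7 CPM in the controls of E18.5 and 10.6, 7.44, 9.69, 9.22 and 7.99 in the global lungs, again without overlap (-1.46 ± 0.17, adjusted p = 1.9e-08), and its fold at E16.5 was -1.43 ± 0.23, adjusted p = 1.35e-05. At E14.5 neither was called (log2 folds -0.48 ± 0.82 and -0.17 ± 0.23), and the effect on Kcnq1 changed by -1.26 ± 0.32, adjusted p = 0.0153 from E14.5 to E16.5.

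Kcnj13 (ENSMUSG00000079436, chromosome 1, 87386363 to 87394729) fell as well. It measured 6.42, 7.23, 7.31, 5.77 and 5.37 CPM in controls and 1.37, 0.377, 0.746, 1.02 and 0.953 in global lungs at E18.5, with the groups apart (-2.84 ± 0.36, adjusted p = 5.26e-08), and its fold at E16.5 was -2.56 ± 0.51, adjusted p = 0.00024. Its call at E14.5 (-2.09 ± 0.71, adjusted p = 0.0485) was lost without any of control 2, control 3, global 2, global 3 or global 4 (log2 folds -2.31 to -1.70), and without the 5 libraries that stand apart (-1.36, adjusted p = 0.417). Of the 1270 exon bases of Kcnj13, 623 lie opposite exons of Gigyf2, whose own log2 fold at E18.5 was 0.11 ± 0.089 (adjusted p = 0.292).

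**Figure D2:**
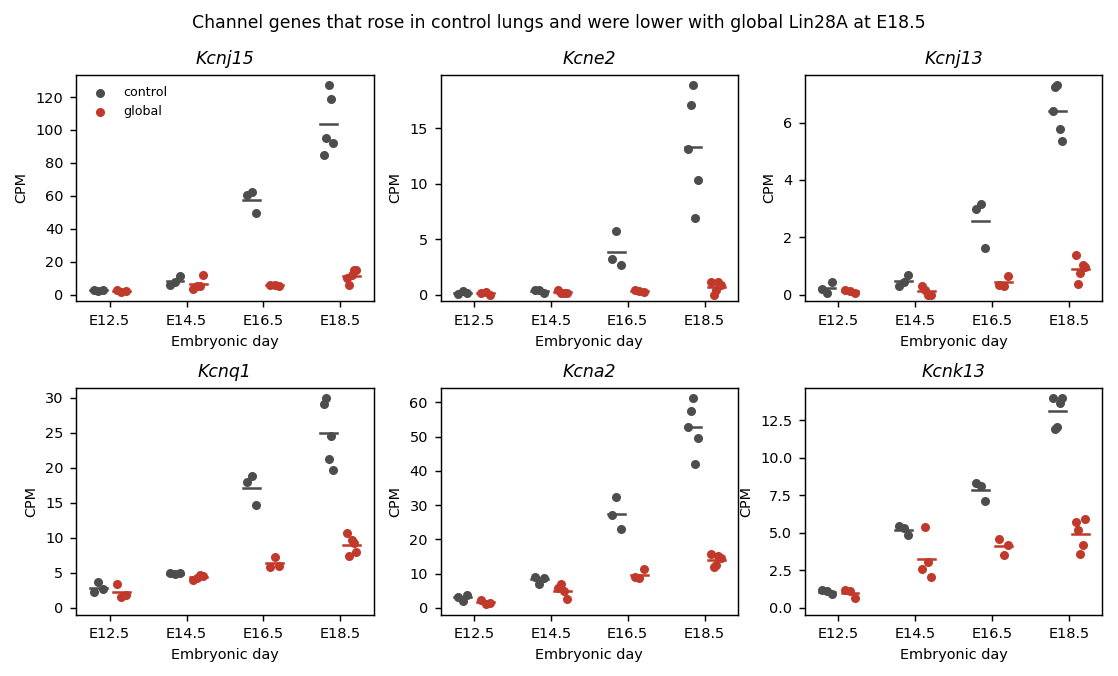
CPM per library of members that fell with global Lin28A, by embryonic day and group; points are libraries and bars are group means. Kcnj15 reaches 84.7 to 127 CPM in the controls of E18.5 and stays at 5.56 to 15.2 CPM in the global lungs.

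Among the vascular channels, Kcnj8, the pore of the ATP-sensitive channel of smooth muscle and pericytes, fell from E14.5 on. Its values were 19.97, 21.5 and 21.2 CPM in controls and 11.7, 10.3, 6.93 and 7.99 in global lungs at E14.5, and 34.7, 38.8, 26.3, 27.9 and 28.7 against 14.4, 13.6, 14.4, 11.7 and 13.3 at E18.5. At both stages every global library was below every control (log2 folds -1.18 ± 0.21 and -1.21 ± 0.17, adjusted p = 0.000301 and 3.99e-07). Its regulatory partner Abcc9, the sulfonylurea receptor of the same channel, had log2 folds of -1.61 ± 0.35, -1.52 ± 0.30, -1.06 ± 0.31 and -1.26 ± 0.25 on E12.5 to E18.5 (adjusted p = 0.0436, 0.000908, 0.00847 and 5.26e-05). At E12.5 Abcc9 measured 9.70, 18.6 and 16.6 CPM in the controls and 7.71, 3.01 and 3.67 in the global lungs. Within each group it was highest in the libraries high in cardiomyocyte genes, and the part of heart tissue in these values was not tested. Kcnk3, a resting conductance of pulmonary artery smooth muscle whose loss causes pulmonary hypertension in humans, measured 70.3, 58.3, 59.3, 59.7 and 35.8 CPM in the controls of E18.5 and 39.9, 36.7, 38.3, 39.2 and 28.8 in the global lungs. These groups overlapped through control 5, and the fall was small (-0.63 ± 0.17, adjusted p = 0.00245). Pericyte markers summed to 433 to 506 CPM in the controls and 463 to 511 in the global lungs of E14.5, where they overlapped, and to 621 to 912 against 359 to 515 at E18.5, and their part in these values was not tested.

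The BK genes Kcnma1, Kcnmb1 and Kcnmb4 rose, and Kcnmb2 fell. Kcnma1, the pore of the BK channel, measured 1.75, 0.631 and 2.67 CPM in controls and 4.52, 3.74 and 4.12 in global lungs at E16.5, with no overlap (1.28 ± 0.40, adjusted p = 0.0135), though without control 2 the fold was 0.89 and no longer called (adjusted p = 0.103). At E18.5 the values overlapped, 0.481, 0.482, 1.11, 2.11 and 1.74 CPM against 1.83, 3.96, 2.76, 1.61 and 2.86 (1.04 ± 0.33, adjusted p = 0.0078, and 0.78 with adjusted p = 0.0851 without the 5 libraries that stand apart). Kcnmb1, its smooth muscle subunit, had 1.16 ± 0.29, adjusted p = 0.00249 at E16.5. Its call at E18.5 (0.55 ± 0.23, adjusted p = 0.0421) was lost without any of controls 1, 4 or 5 or global 3 or 5 (log2 folds 0.41 to 0.58), and without the 5 libraries (0.55, adjusted p = 0.0984). Kcnmb4, the subunit best known from brain, had 0.87 ± 0.21, 1.26 ± 0.23 and 1.07 ± 0.18 on E14.5, E16.5 and E18.5 (adjusted p = 0.00528, 7.53e-05 and 7.19e-06; at E14.5 0.79, adjusted p = 0.0682, without the 5 libraries). Kcnmb2 fell at E18.5 (-1.72 ± 0.32, adjusted p = 2.49e-05). Smooth muscle markers summed to 521 to 639 CPM in the controls and 1025 to 1169 in the global lungs of E18.5, and their part in the rises was not tested.

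Several further tandem-pore and voltage-gated members fell with global Lin28A. The delayed rectifier subunit Kcnc1, known from fast-firing neurons, fell at E14.5 and E16.5, with log2 folds of -2.52 ± 0.42 and -1.17 ± 0.41 (adjusted p = 0.000207 and 0.0238) and was at -0.32 ± 0.31 at E18.5 (adjusted p = 0.379). The call of E16.5 was lost without control 1 or 2 or global 1 or 2 (log2 folds -1.16 to -1.099). Kcna2, a delayed rectifier of axons, measured 52.96, 57.5, 61.3, 42.1 and 49.7 CPM in the controls of E18.5 and 15.7, 11.96, 12.45, 15.3 and 14.7 in the global lungs (-1.91 ± 0.18, adjusted p = 1.93e-10). The tandem-pore subunit Kcnk13, known from microglia, fell with -1.42 ± 0.18, adjusted p = 7.89e-08, and Kcnk6, a related subunit, with -1.08 ± 0.11, adjusted p = 1.52e-09. Kcnk12, a close relative of Kcnk13, had 60 counts over the 5 controls and 5 over the 5 global libraries, a ratio of controls to global lungs of 13.6 (exact 95% interval 5.50 to 43.3, counting error only). Kcna2 and Kcnk6 were chosen after their values were seen.

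Leukocyte markers of E18.5 were low in the global and mesenchymal lungs, where Kcna2, Kcnk13, Kcnk6 and Kcnk12 were low. Kcnc1 did not follow them, at 0.714, 1.595 and 0.367 CPM in the epithelial and 2.536 and 1.399 in the mesenchymal lungs. The part of leukocytes in these values was not tested. At E18.5 leukocyte markers summed to 467 to 942 CPM in the controls, 90.9 to 129.6 in the global, 377 to 627 in the epithelial and 119 to 148 in the mesenchymal lungs. Alveolar type 2 markers summed to 15412 to 24127, 131 to 3269, 9621 to 16675 and 1299 to 4803 CPM in the same order, alveolar type 1 markers to 3624 to 5323, 508 to 707, 3212 to 3642 and 506 to 878, and endothelial markers to 2594 to 3721, 1139.7 to 1323, 2423 to 3341 and 1199 to 1414. These sums are high where Kcnj15, Kcne2, Kcnq1 and Kcnj13 are high, and their part in those values was not tested. In whole lungs, fewer cells of a type and less RNA per cell cannot be told apart.

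Kcnk16 had the largest fold among the rises with global Lin28A that reached a group mean of 1 CPM (ENSMUSG00000023387, chromosome 14, 20261376 to 20269199). It measured 0.437, 0.180 and 0.486 CPM in controls and 6.70, 7.94 and 5.19 in global lungs at E16.5, and 0.160, 0.241, 0.318, 0.156 and 0.227 against 5.61, 7.63, 4.996, 7.91 and 3.30 at E18.5. No library of one group reached the other at either stage, with log2 folds of 4.12 ± 0.43 and 4.65 ± 0.37 (adjusted p = 2.46e-08 and 7.28e-12). At E18.5 the global libraries together held 350 of its counts and the controls 12. At E14.5 the rise was smaller (1.47 ± 0.34, adjusted p = 0.0038; 1.24, adjusted p = 0.0601, without the libraries that stand apart), and the effect grew by 2.64 ± 0.55, adjusted p = 0.00401 from E14.5 to E16.5. Global lungs stayed between 3.30 and 7.94 CPM over the later stages, whereas the controls fell from 2.32 CPM at E12.5 to 0.220 at E18.5.

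Kcnb2, Kcnn1 and Kcnd3 also rose with global Lin28A, by smaller folds. Kcnb2, a delayed rectifier subunit, measured 3.07, 3.96 and 3.50 CPM in controls and 8.51, 7.31, 6.08 and 8.601 in global lungs at E14.5, and 1.93, 1.33, 2.23, 1.01 and 1.29 against 3.89, 7.16, 6.19, 6.003 and 4.77 at E18.5. The groups were apart at both stages, and the folds were 1.11 ± 0.26, 1.47 ± 0.29 and 1.86 ± 0.24 on E14.5, E16.5 and E18.5 (adjusted p = 0.00409, 0.000188 and 7.32e-08). The small-conductance subunit Kcnn1 had 1.22 ± 0.27, 0.90 ± 0.28 and 1.34 ± 0.23 on the same days (adjusted p = 0.00286, 0.0123 and 1.06e-05), the first not called without the 5 libraries (0.98, adjusted p = 0.0826) nor the second without global 3 (0.76, adjusted p = 0.0618). Kcnd3 had 1.27 ± 0.32 and 1.37 ± 0.38 on E14.5 and E16.5 (adjusted p = 0.00816 and 0.00508), the first not called without control 3 (log2 fold 1.12, adjusted p = 0.06; 1.15, adjusted p = 0.0578, without the 5 libraries).

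Kcnj10, an inward rectifier of glia and kidney tubules, was among the later rises, at 0.321, 0.361, 0.556, 0.312 and 0.605 CPM in the controls of E18.5 and 1.37, 2.45, 2.39, 2.27 and 1.25 in the global lungs, without overlap (2.11 ± 0.30, adjusted p = 5.76e-07). The modifier Kcng1, which joins Kcnb pores, rose at E16.5 (2.05 ± 0.65, adjusted p = 0.0131; 1.78, adjusted p = 0.0625, without control 1), and the modifier Kcns3 fell (-1.38 ± 0.34, adjusted p = 0.00178). Kcnh8, of the ELK branch, had no count in any of the 5 controls of E18.5 and 0.229, 0.942, 0.597, 0.366 and 0.220 CPM in the global lungs, at least 8.26-fold higher against a floor of 3 counts over the control group. Kcnh8 was chosen after its values were seen.

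**Figure D3:**
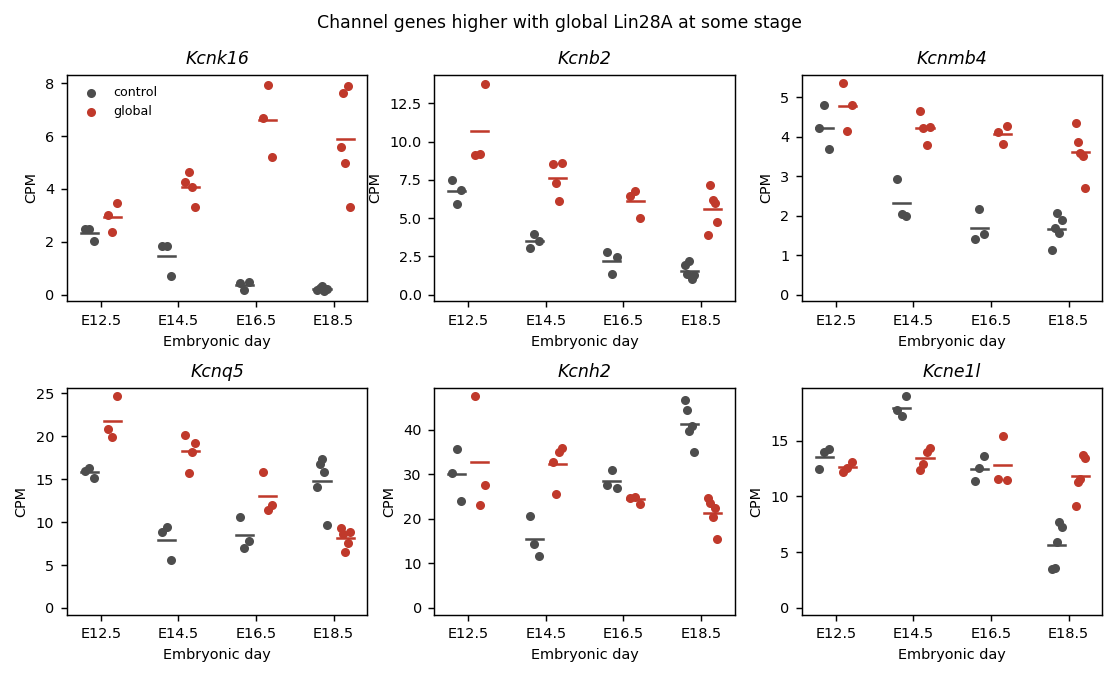
CPM per library of members that were higher with global Lin28A at some stage, by embryonic day and group. Points are libraries and bars are group means. Kcnq5 and Kcnh2 are lower in the global lungs at E18.5. Kcnk16 falls to 0.156 to 0.318 CPM in the controls of E18.5 and is at 3.30 to 7.91 CPM in the global lungs.

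For some members the effect of global Lin28A changed with age. From E16.5 to E18.5, 5 of the 71 differed in an interaction test (7.04% against 10.7% of all genes), and from E12.5 to E14.5 none did by edgeR (0.0437% of all genes; 13 members had an unadjusted p under 0.05, and the DESeq2 Wald test called 1). Kcnq5, a subunit of the M-current, was higher in global lungs at E14.5, 8.83, 9.45 and 5.56 CPM in controls against 20.1, 15.7, 18.2 and 19.2 (1.20 ± 0.20, adjusted p = 0.000141), and lower at E18.5, 14.1, 16.7, 17.4, 15.8 and 9.69 against 9.27, 8.57, 6.56, 7.54 and 8.87 (-0.86 ± 0.16, adjusted p = 3.58e-05). The groups did not overlap at either age, and the effect changed by -1.48 ± 0.26, adjusted p = 0.000607 from E16.5 to E18.5. Kcnh2, the ERG channel of cardiac repolarisation, was higher at E14.5 (1.06 ± 0.21, adjusted p = 0.000943; 0.85, adjusted p = 0.0533, without the 5 libraries) and lower at E18.5 (-0.96 ± 0.17, adjusted p = 1.28e-05), and its effect changed by -1.28 ± 0.30, adjusted p = 0.00836 from E14.5 to E16.5 (-1.07, adjusted p = 0.0572, without the libraries that stand apart). Kcnk1 was not called at E14.5 (log2 fold -0.28 ± 0.11) or E16.5 (0.15 ± 0.12) and rose at E18.5, with 19.3, 14.9, 18.8, 22.7 and 22.8 CPM in the controls of E18.5 against 39.2, 41.5, 43.5, 39.3 and 41.5 in the global lungs (1.05 ± 0.095, adjusted p = 9.22e-11; change from E16.5 0.90 ± 0.15, adjusted p = 0.000431). Kcnt1, whose late rise in controls is given above, was at 0.343, 0.565, 0.895, 0.879 and 0.807 CPM in the global lungs of E18.5 (change of the effect -3.09 ± 0.62, adjusted p = 0.00157).

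Kcne1l and Kcna3 completed that set. The global effect on Kcne1l changed by 1.01 ± 0.27, adjusted p = 0.0148 from E16.5 to E18.5, and by 0.94 (adjusted p = 0.0559) without control 3 of E16.5. That on Kcna3, a channel of lymphocytes chosen after its values were seen, changed by -1.65 ± 0.47, adjusted p = 0.022, and by -1.45 or -1.49 without control 3 or global 3 of E16.5, neither of which was called (adjusted p = 0.0853 and 0.0683). Without the 5 libraries, 3 of the 5 remained called (Kcnk1, Kcnq5 and Kcnt1). Kcnn4, the intermediate-conductance channel of epithelia and leukocytes, was called lower at E14.5 and E16.5 (-1.73 ± 0.45 and -1.21 ± 0.48, adjusted p = 0.0106 and 0.0463) and was at -0.16 ± 0.37, adjusted p = 0.71 at E18.5. The first call was lost without control 3 of E14.5 (-0.97, adjusted p = 0.243) and without the 5 libraries (-1.13, adjusted p = 0.26), and the second without any of the 3 controls or global 1 or 2 of E16.5 (log2 folds -1.28 to -0.81). Kcne3, an epithelial partner of Kcnq1, was not called in any of the 6 transgenic comparisons (log2 folds -0.71 to 0.76).

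At E18.5 the lungs with mesenchymal and with epithelial Lin28A were compared with the controls, and the epithelial lungs directly with the mesenchymal and global ones. In each of these 4 comparisons the share of members called was below that of all genes. With mesenchymal Lin28A, 12 rose and 21 fell against the controls (46.5% against 54.3% of all genes, 2 libraries). With epithelial Lin28A, 9 rose and 5 fell (19.7% against 33.2%), and 9 were called without the libraries that stand apart. The share of all genes called in that setting is not given here. The direct test of epithelial against mesenchymal lungs, which shares no control samples, called 21 members higher in the epithelial and 10 higher in the mesenchymal lungs (43.7% against 53.3%). That of global against epithelial lungs called 14 higher and 24 lower in the global lungs (53.5% against 63.1%). The summed level of the 71 genes was 643 to 842 CPM in epithelial and 356 to 401 CPM in mesenchymal lungs. Without mesenchymal 2, a single library stood for the mesenchymal group, which was then assumed to vary like the others.

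The following genes, which fell in global lungs, were not called against controls with epithelial Lin28A and were low with mesenchymal Lin28A. Kcnj15 measured 149, 73.1 and 103 CPM in the epithelial and 22.7 and 9.87 in the mesenchymal lungs (2.73 ± 0.39, adjusted p = 1.06e-06 for epithelial over mesenchymal). The epithelial values spread around those of the controls (0.063 ± 0.27, adjusted p = 0.884). Kcne2 measured 14.9, 11.3 and 9.37 and 1.34 and 0.389 CPM (3.75 ± 0.61, adjusted p = 7.85e-06), and Kcnq1 23.6, 22.5 and 16.99 and 11.7 and 5.91 CPM (1.25 ± 0.26, adjusted p = 0.000144). In each of these genes every epithelial library was above both mesenchymal ones. Kcnj13 measured 6.87, 3.72 and 3.86 and 2.24 and 0.699 CPM (1.70 ± 0.50, adjusted p = 0.00481), a difference not called without mesenchymal 2 (1.103, adjusted p = 0.139). Epithelial 2 and 3 of Kcnj13 lay below every control of that day (5.37 to 7.31 CPM). Kcnj8 measured 33.5, 33.1 and 18.9 and 12.98 and 14.2 CPM (1.07 ± 0.25, adjusted p = 0.00066), and Kcnt1 4.20, 3.99 and 3.58 and 0.671 and 0.4662 CPM (2.76 ± 0.52, adjusted p = 5.97e-05). The controls of these 2 genes lay between 26.3 and 38.8 CPM and between 2.57 and 8.79 CPM.

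Kcnk16 showed the reverse pattern. It measured 0.179, 0.354 and 0.367 CPM in the epithelial lungs, close to the controls (0.40 ± 0.59, adjusted p = 0.645), and 2.91 and 8.16 CPM in the mesenchymal ones (4.56 ± 0.42, adjusted p = 5.45e-10; epithelial over mesenchymal -4.16 ± 0.47, adjusted p = 2.72e-08). Kcnj10 was likewise higher in the mesenchymal lungs, 1.94 and 1.86 CPM against 0.446, 0.709 and 0.459 (-1.80 ± 0.41, adjusted p = 0.000445), as was Kcnn1, 2.98 and 4.12 against 0.536, 1.33 and 0.551 (-2.12 ± 0.34, adjusted p = 5.8e-06). For both genes the groups did not overlap. Kcnma1 was also higher with mesenchymal Lin28A (-1.58 ± 0.47, adjusted p = 0.00542 for epithelial over mesenchymal; -1.22, adjusted p = 0.0955, without mesenchymal 2). Kcnb2 rose in both, with 1.84 ± 0.29 in the mesenchymal and 0.90 ± 0.28 in the epithelial lungs against controls (adjusted p = 3.97e-06 and 0.0131), the latter not called without epithelial 3 (0.59, adjusted p = 0.177). Smooth muscle markers summed to 583 to 630.1 CPM in the epithelial and 965 to 1332 in the mesenchymal lungs, and their part in these values was not tested.

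**Figure D4:**
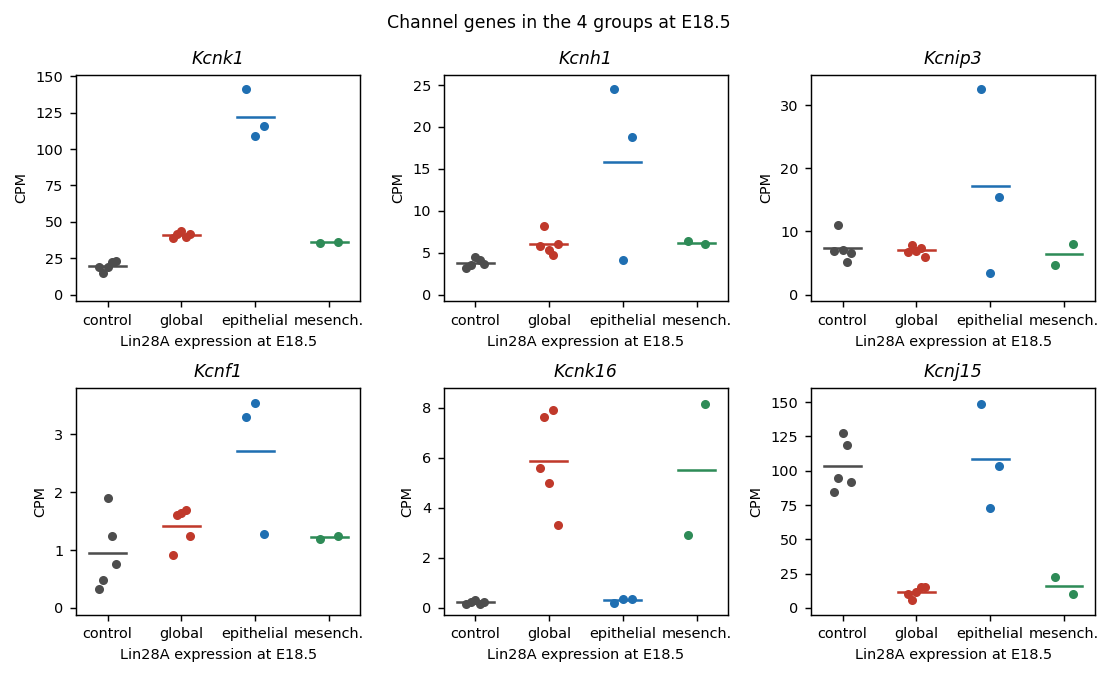
CPM per library of selected members in the 4 groups of E18.5; points are libraries and bars are group means. Kcnk1 is at 109 to 141 CPM with epithelial Lin28A and at 14.9 to 22.8 CPM in the controls, while Kcnj15 is low in the global and mesenchymal lungs.

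A few members rose with epithelial Lin28A beyond their level in the other transgenic lungs. Kcnk1 (ENSMUSG00000033998, chromosome 8, 125995170 to 126030685), a tandem-pore channel of epithelia, measured 141, 109 and 116 CPM in the epithelial lungs against 19.3, 14.9, 18.8, 22.7 and 22.8 in the controls, 39.2, 41.5, 43.5, 39.3 and 41.5 in the global and 35.6 and 36.4 in the mesenchymal lungs. Every epithelial library was above every other library of that day (against controls 2.62 ± 0.10, adjusted p = 4.83e-17; over mesenchymal 1.76 ± 0.14, adjusted p = 6.55e-11; global over epithelial -1.57 ± 0.10, adjusted p = 2.02e-13). Kcnk5, an acid-sensitive tandem-pore channel of epithelia, rose by less, to 33.7, 29.5 and 25.1 CPM from 21.02, 17.1, 21.8, 20.4 and 19.1 (0.57 ± 0.11, adjusted p = 0.000144).

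Other epithelial rises were uneven between the 3 libraries. Kcnh1, the EAG channel, measured 24.6, 4.16 and 18.8 CPM, with library 2 within the range of the controls, 3.21, 3.49, 4.53, 4.13 and 3.71 (2.04 ± 0.31, adjusted p = 7.95e-06). Kcnip3, a calcium-binding partner of Kcnd channels chosen after its values were seen, measured 32.5, 3.37 and 15.5 CPM, with library 2 below all controls (1.23 ± 0.33, adjusted p = 0.00477; 0.37, adjusted p = 0.423, without epithelial 1). Kcnc4, a fast A-type subunit, measured 2.05, 0.177 and 2.48 CPM, or 52 counts against 1 over the controls, a ratio of 82.8 (exact 95% interval 14.2 to 3333, counting error only; 5.76 ± 0.83, adjusted p = 3.79e-06), and library 2 had 0.177 CPM beside 0.160 in control 1. The modifier Kcnf1 measured 3.30, 3.54 and 1.29 CPM, with library 3 among the controls (1.43 ± 0.39, adjusted p = 0.00518; 1.42, adjusted p = 0.0669, when fitted on these groups alone). Kcnh7, another ERG subunit, was called (1.29 ± 0.47, adjusted p = 0.034) but not when any of controls 2 to 5 or of epithelial 1 and 2 was left out (log2 folds 1.05 to 1.30). Neither Kcnh7 (1.25, adjusted p = 0.182) nor Kcnip3 (0.33, adjusted p = 0.579) was called without the 5 libraries.

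The falls with epithelial Lin28A were of moderate size. Kcnh2 measured 18.7, 25.5 and 19.3 CPM against 46.7, 44.5, 39.8, 40.9 and 35.1 in the controls, without overlap (-0.96 ± 0.20, adjusted p = 0.000394), a fold like that in global (-0.96 ± 0.17) and mesenchymal lungs (-0.94 ± 0.23), which share these controls. Kcnk13 fell (-0.66 ± 0.21, adjusted p = 0.0138; -0.54, adjusted p = 0.0713, without epithelial 2), as did Kcnc1 (-1.47 ± 0.40, adjusted p = 0.00529; -1.11, adjusted p = 0.0567, without epithelial 3) and Kcnh6 (-1.63 ± 0.51, adjusted p = 0.0148; -1.39, adjusted p = 0.0844, without epithelial 1). Kcnc1 (-1.21, adjusted p = 0.0739) and Kcnh6 (-1.06, adjusted p = 0.247) were not called without the 5 libraries.

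At E12.5 the cardiac channel genes Kcnj3 and Kcnj5 were highest in the libraries with the highest cardiomyocyte sums. Kcnj3 and Kcnj5 form the acetylcholine-gated channel of the atrium, and at E12.5 they measured 2.53, 8.604 and 9.18 and 10.2, 19.7 and 25.5 CPM in the controls. In the global lungs of that day they measured 6.43, 0.143 and 0.190 and 35.1, 2.08 and 1.39 CPM. Global 1 was thus as high as the controls and the other two were low, as were the cardiomyocyte sums given above. Without global 1, 5 members were called at E12.5, all lower: Kcnj3 (log2 fold -5.25), Kcnj5 (-3.41), Kcnj11 (-3.37), Kcng2 (-2.29) and Kcnk3 (-1.19). The share of all genes called in that fit is not given here, so this count is not a result about potassium channels. Leaving out the 3 libraries high in cardiomyocyte genes left only control 1 beside global 2 and global 3, so calls cannot be judged there. At E18.5 Kcnj3 measured 0.321, 0.482, 2.07, 0.312 and 0.378 CPM in the controls, highest in control 3. Kcnj3 and Kcnj5 were both called lower in global lungs of that day (-2.43 ± 1.07 and -2.20 ± 0.76, adjusted p = 0.0487 and 0.0127), and neither was without control 3 (-1.43 and -1.75, adjusted p = 0.311 and 0.063). Without the 5 libraries they were at -1.47 and -1.75 (adjusted p = 0.372 and 0.101). The call of Kcnj3 was also lost without control 2 or any of the global libraries (log2 folds -2.72 to -2.16). The part of heart tissue in these values was not tested. Kcnj11 and Kcng2 were chosen after their values were seen.

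**Figure D5:**
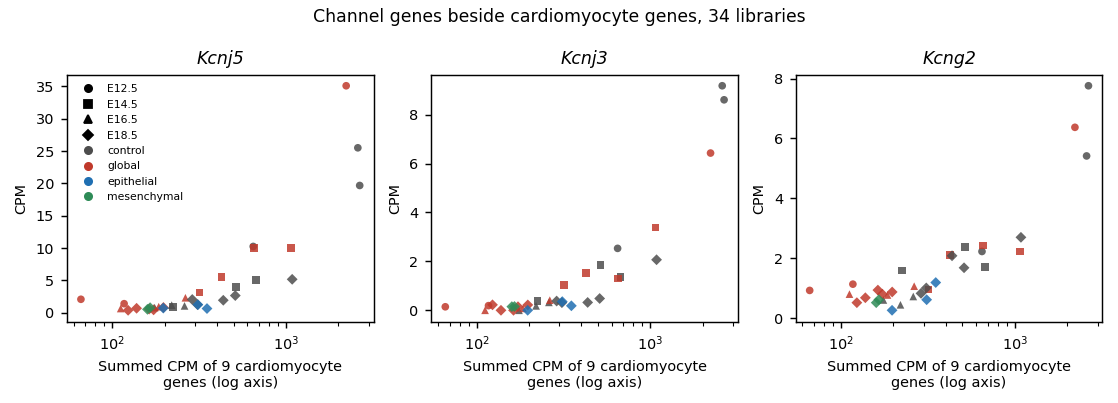
CPM of Kcnj5, Kcnj3 and Kcng2 per library against the summed CPM of 9 cardiomyocyte marker genes, with the horizontal axis on a log scale; colours mark groups and symbols mark stages. The libraries of E12.5 with high cardiomyocyte sums, controls 2 and 3 and global 1, hold the highest values of Kcnj5, at 19.7, 25.5 and 35.1 CPM.

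Since Lin28A is known to act on let-7, the 3′ UTRs of the members were searched for the let-7 seed match CTACCTC, on the coding strand only. The mature let-7 sequences of the mouse, 11 entries of RefSeq (GRCm38.p6) with 9 distinct sequences, share 1 seed at bases 2 to 8. Capitals mark the seed in the microRNAs and its match in 30-base stretches of the UTRs (GRCm38), shown for 3 members whose RNA changed.
mmu-let-7a-5p: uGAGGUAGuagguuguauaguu
mmu-let-7g-5p: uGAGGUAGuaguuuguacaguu
Kcnc1 3′ UTR site (match at chr7:46429412-46429418, + strand): tgaaaacccatagtCTACCTCtacccatgg
Kcnk3 3′ UTR site (match at chr5:30624456-30624462, + strand): gcctgctatgccttCTACCTCctctacctg
Kcnk6 3′ UTR site (match at chr7:29222133-29222139, - strand): gtatttgtacagcaCTACCTCgtggactgg

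The seed match was held by 8 of the 71 members (11.3%), against 1572 of 15144 tested protein-coding genes with a UTR (10.4%), among them Kcnc1, Kcnc2, Kcnc4, Kcnj3, Kcnk3 and Kcnk6. In none of these 6 was the match followed by an A. At E18.5 of global Lin28A, 0 of these 8 rose and 6 fell (median log2 fold -1.21), while of the 63 members without a match 15 rose and 21 fell. Kcnc1, whose match is printed above, fell to 0.387, 0.591, 0.676 and 0.0869 CPM at E14.5 from 2.61, 2.43 and 2.68 in the controls. Over all genes at E18.5, 37.5% of those with a match and 34.5% of those without rose, and 34.4% and 35.4% fell. At E14.5 the shares of all genes were 10.8% and 4.41% higher and 7.57% and 10.2% lower. A match is a description of the letters, and let-7 itself was not measured in these libraries.

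The promoters of Kcne2 and Kcnj15, genes of chromosome 16 that fell together, are shown because both lost most of their RNA in global lungs. The windows run from 250 bases before to 50 after the start (RefSeq, GRCm38.p6), and capitals mark matches to CTCAAG or, on the other strand, CTTGAG, the core letters bound by NKX2-1, the lung epithelial transcription factor.
Kcne2 promoter (chr16:92292139-92292438, + strand): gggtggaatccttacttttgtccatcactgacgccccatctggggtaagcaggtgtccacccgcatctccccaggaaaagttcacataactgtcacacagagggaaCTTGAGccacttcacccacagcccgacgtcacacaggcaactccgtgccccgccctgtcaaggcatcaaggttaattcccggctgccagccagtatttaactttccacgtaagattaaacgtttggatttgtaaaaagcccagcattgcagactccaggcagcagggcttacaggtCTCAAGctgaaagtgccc
Kcnj15 promoter (chr16:95257308-95257607, + strand): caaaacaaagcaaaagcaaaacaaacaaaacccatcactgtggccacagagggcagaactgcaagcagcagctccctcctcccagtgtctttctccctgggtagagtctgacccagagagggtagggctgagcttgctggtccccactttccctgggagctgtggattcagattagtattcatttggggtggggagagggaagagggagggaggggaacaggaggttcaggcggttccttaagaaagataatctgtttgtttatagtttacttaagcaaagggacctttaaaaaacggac

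The printed Kcne2 window, the first of 2 in the table, held 2 matches, its second window none and the Kcnj15 window none, while 15.9% of all 32851 promoters hold at least 1. The forkhead letters TGTTTAC, searched on both strands and held by 3.65% of promoters, were found in none of these, nor in the promoter of Kcnj13, which also held no CTCAAG. Promoter sequences were matched for 51 of the 71 members.

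Genes that work beside potassium channels were described from fixed lists. At E18.5 of global Lin28A, 64.8% of all 18319 genes were called, 5876 higher and 5996 lower. The counts of these short lists were not tested against that share. Of the partner subunits of Kv and BK channels outside the Kcn symbols, 0 of 5 tested rose and 5 fell at E18.5 of global Lin28A, among them Lrrc26, a BK subunit of secretory epithelia (-3.89 ± 0.44, adjusted p = 1.45e-08), and Amigo1, a partner of Kcnb channels (-0.64 ± 0.12, adjusted p = 3.24e-05). The sodium potassium pump, which builds the gradient these channels use, had 0 higher and 5 lower of 6, with Atp1b1 at -2.26 ± 0.32, adjusted p = 5.31e-07. In epithelial lungs Atp1b1 rose instead (1.13 ± 0.35, adjusted p = 0.013). Of 9 tested genes of airway chloride and sodium transport, 1 rose and 6 fell in global lungs, led by the epithelial sodium channel subunit Scnn1a (-4.66 ± 0.27, adjusted p = 1.82e-14), which in epithelial lungs rose (1.03 ± 0.25, adjusted p = 0.00205).

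Other excitability genes were mixed, and their counts too stand beside 64.8% of all genes called. Of the 4 HCN pacemaker channels, 2 rose and 0 fell in global lungs at E18.5 (Hcn4 1.60 ± 0.57, adjusted p = 0.0152; Hcn3 0.99 ± 0.22, adjusted p = 0.000318). Voltage-gated calcium channel subunits had 2 higher and 9 lower of 15 tested, and voltage-gated sodium channel subunits 3 higher and 5 lower of 12. Their median log2 folds were -0.43 and -0.66, beside -0.32 for the potassium channel genes and -0.011 for all genes.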

How the data were processed

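Whole-lung poly(A) RNA-seq of 34 mouse libraries in 10 groups was analysed from the deposited tables. Per the labels, the authors deposited raw read counts per Ensembl gene. A second deposited table holds a normalized signal, in which every library's counts are scaled by a single factor, so only the raw counts were analysed. Per the submitters' processing notes the software included DESeq2 1.10.1, HTSeq 0.6.1p1, STAR 2.4.2a, cutadapt and bcl2fastq 2.17.1.14, on the build GRCm38. Their roles, the annotation release and the strandedness are not given in the sources used here. The tables list 21789 genes, of which none stays below 6 counts in every library. The column of 1 mesenchymal library is headed Wt2 and was matched by day and number to the sample titled Wt1.

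Symbols, exon lengths and coordinates came from GENCODE M21 (21754 identifiers found, 35 not). edgeR 4.0.16 in R 4.3.3 (limma 3.58.1) fitted 1 quasi-likelihood model of 10 group means to all 34 libraries, with TMM scaling and filterByExpr, which left 18319 genes, 24 residual degrees of freedom and a common biological coefficient of variation of 0.172. Benjamini-Hochberg adjustment ran over all genes tested in each of 14 comparisons, with calls at an adjusted p under 0.05. Every adjusted p is from this fit unless another is named. The standard error of a log2 fold is its size divided by the square root of F. A ratio of counts carries an exact 95% interval from the binomial distribution, and a fold against no counts uses 3 counts over the group. Depth ran from 7147301 to 17624884 counts per library. PCR copies are not independent molecules, so intervals and floors cover counting error only.

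Members always named were Kcnj8, Kcnj13, Kcnk3, Kcnq1, Kcne3, Kcnn4, Kcnma1 and Kcnmb1. Beside them stood the 5 called members with the largest rise and the 5 with the largest fall per transgenic comparison (3 per control step) among those reaching a group mean of 1 CPM, and class leaders per length. Some of them are not reported here. The members and all gene and marker lists were chosen with earlier results of these data known. Alternatives were DESeq2 size factors, the DESeq2 1.42.0 Wald test, no count filter, a fit of the compared groups only, the replicate number as a block, and leaving out each library. Those without 5 libraries that stand apart and without 3 libraries of E12.5 were chosen after seeing the data. The edgeR steps were tested on simulated data.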

Additional observations from a re-analysis of the deposited data

Results flagged for a closer look

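Single libraries lay far from the rest of their group in 5 of 131 member and group combinations of 4 to 10 libraries, where chance gives about 1 in 20. Kcnc4 was at 0.160 CPM in control 1 of E18.5 and at 0 in the other 4 controls. Kcne2 was at 0.387 CPM in global 1 of E14.5, above 0.148 to 0.174 in the others. Kcng1 was at 3.56 CPM in global 4 of E14.5, the library high in kidney markers, above 1.84 to 1.86. Without that library the log2 fold of Kcng1 at E14.5 went from 1.95 to 1.65 and was not called (adjusted p = 0.0571). Kcnj3 was at 2.07 CPM in control 3 of E18.5, the library high in cardiomyocyte markers, above 0.312 to 0.482. Kcnk3 was at 28.8 CPM in global 5 of E18.5, below 36.7 to 39.9.

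The effect of global Lin28A differed between stages, by the interaction test, in 10 members. From E14.5 to E16.5 it changed on the log2 scale by 2.64 in Kcnk16, -1.28 in Kcnh2, -2.94 in Kcnj15, -2.61 in Kcnmb2 and -1.26 in Kcnq1. From E16.5 to E18.5 it changed by 1.01 in Kcne1l, 0.90 in Kcnk1, -1.48 in Kcnq5, -3.09 in Kcnt1 and -1.65 in Kcna3.

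Epithelial and mesenchymal Lin28A lungs differed directly in 24 of the named members. Over all 71 members 43.7% were called in this comparison, against 53.3% of all genes. Higher in the epithelial lungs, by log2 fold, were Kcnc4 (4.20), Kcne2 (3.75), Kcnf1 (1.15), Kcnh1 (1.36), Kcnj13 (1.70), Kcnj15 (2.73), Kcnj8 (1.07), Kcnk1 (1.76), Kcnk12 (2.26), Kcnk13 (0.89), Kcnk3 (0.76), Kcnk5 (0.68), Kcnmb2 (1.07), Kcnq1 (1.25), Kcnq5 (0.81) and Kcnt1 (2.76). Higher in the mesenchymal lungs, with negative folds, were Kcnb2 (-0.94), Kcnc1 (-1.13), Kcne1l (-1.17), Kcnj10 (-1.80), Kcnk16 (-4.16), Kcnma1 (-1.58), Kcnmb1 (-1.102) and Kcnn1 (-2.12). Each library was also left out in turn, which in some fits left a single mesenchymal library. The calls of Kcnb2, Kcnc1, Kcnf1, Kcnh1, Kcnj13, Kcnk12, Kcnk13, Kcnk3, Kcnma1, Kcnmb1, Kcnmb2 and Kcnq5 were each lost at least once. Without the 5 libraries that stand apart, Kcnb2, Kcnc1, Kcnf1, Kcnh1 and Kcnmb2 were no longer called in this comparison (-0.72, -0.98, 0.99, 0.90 and 1.03), and in the later stage step neither Kcne1l nor Kcna3 was (0.86 and -1.62).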

How the results depend on the processing

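Counts of members called moved by over 1.5 times in few settings. The shares of all genes called in these settings and without single libraries are not given here. The counts are therefore not results about potassium channels. Without the 5 libraries that stand apart they were 5 in place of 17 at E14.5 of global Lin28A, 9 in place of 14 with epithelial Lin28A, 15 in place of 23 for the control step to E18.5, and 3 in place of 5 for the change of the global effect from E16.5 to E18.5. That last count was 8 in a fit of the compared groups only. The change from E12.5 to E14.5 gave 1 call in place of 0 in such a fit and 1 by the DESeq2 Wald test. Counts without the 3 cardiomyocyte-high libraries of E12.5 are not given, since only control 1 of that day remained.

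Leaving out 1 library at a time, the calls with global Lin28A lay between 0 and 5 at E12.5, between 12 and 17 at E14.5, between 20 and 24 at E16.5 and between 36 and 40 at E18.5, and were 11 to 17 for epithelial and 22 to 34 for mesenchymal Lin28A. Control steps gave 20 to 22, 16 to 21 (16 without control 2 of E16.5) and 14 to 23 (14 without control 1 or control 3 of E16.5). Epithelial against mesenchymal gave 20 to 32, global against epithelial 31 to 38, and the changes of the global effect 0 to 3 (3 without global 1 of E12.5), 5 to 6 and 3 to 6 (3 without control 3 of E16.5). Leaving out a mesenchymal library assumes that the remaining one varies like the other groups.

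Of 236 called results of named members, 149 stayed called whichever library was left out and 134 under every alternative. Direction turned in folds that were not called. Without the 5 libraries these were Kcne3 (0.37 for the control step to E16.5 and 0.095 with epithelial Lin28A), Kcnk3 (-0.13 and 0.021 in the same comparisons), Kcnma1 (0.13) and Kcnmb1 (-0.0057) at E14.5. Without the 3 libraries, Kcne3 (0.34) and Kcnn4 (0.012) turned at E12.5. Leaving out single libraries, the folds that turned with at least 1 of them spanned -0.27 to 0.50 for Kcne3 at E12.5, -0.53 to 0.0047 for Kcne3 with epithelial Lin28A, -0.65 to 0.36 for Kcne3 in the control step to E16.5, -0.26 to 0.094 for Kcnj8 with epithelial Lin28A, -0.14 to 0.21 for Kcnk3 in the control step to E16.5, -0.17 to 0.054 for Kcnma1 at E14.5, -0.50 to 0.068 for Kcnma1 with epithelial Lin28A, -0.81 to 0.082 for Kcnma1 in the control step to E18.5, -0.39 to 0.083 for Kcnmb1 at E12.5, -0.16 to 0.26 for Kcnmb1 at E14.5, -0.010 to 0.36 for Kcnmb1 in the control step to E14.5, -0.068 to 0.32 for Kcnmb1 in the control step to E18.5, -0.35 to 0.24 for Kcnn4 at E12.5, -0.36 to 0.00070 for Kcnn4 at E18.5 of global Lin28A and -0.36 to 0.78 for Kcnn4 in the control step to E16.5. The cause of these changes was not tested.

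The deviations of libraries with the same replicate number correlated at -0.146 to 0.226. For control and global lungs of E18.5 these values lay between -0.009 and 0.226. Among numbers 1 and 2 of those lungs, also across numbers, they were 0.226, 0.108, 0.204 and 0.061. Shared sets of samples at E18.5 can therefore not be excluded. With the replicate number as a block no count moved by over 1.5 times, and the fold of Kcnma1 turned to 0.050 at E14.5 and 0.023 with epithelial Lin28A. Depth limits members under 1 CPM most; 53 of the 71 reached a group mean of 1 CPM in the controls of E18.5.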
